A study of Mus musculus with 8 samples.

Results

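The comparison set 2 edited lines of mouse embryonic stem cells against each other. All 8 libraries of the study entered it, the 4 of genotype GPATCH1-dTAG and the 4 of genotype DHX35-dTAG, chosen by the genotype in the sample labels. Of the 4 libraries of each line, 2 came from cells given the solvent DMSO and 2 from cells given 200 nM dTAG-13 for 4 h, and this treatment was a covariate of the comparison. In each line the named protein was fused to a degron made from FKBP12 with the F36V change, which dTAG-13 joins to a ubiquitin ligase so that the fused protein is degraded. Both lines therefore share the mouse embryonic stem cell background, the editing procedure and puromycin selection, and each differs from the other in which gene carries the tag. The lines were grown from picked single colonies, the clone is not named in the labels, and libraries of an untagged parent line were not analysed here. Clone, tag and culture history of a line cannot be told apart in these data. The labels call the cells E14, while the growth protocol speaks of R1 cells. The labels do not say whether the 2 libraries of a group came from separate cultures, so the p-values measure the spread between these libraries, which may be technical.

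DHX35 is a DEAH-box RNA helicase and GPATCH1 is a G-patch protein, a class of cofactors that bind such helicases and stimulate them, and both belong to the splicing machinery. Mouse embryonic stem cells are held in a self-renewing pluripotent state by transcription factors such as Pou5f1, Nanog and Esrrb. Sublines of such cells can differ in the expression of imprinted genes, lineage genes and multicopy loci.

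Total counts ranged from 12014203 to 14994173 per library. The 2 genes with the highest counts, which hold ribosomal RNA sequence, took between 1.27% and 20.9% of the counts. Replicate 1 of the DHX35-dTAG line in DMSO stood apart, with a mean correlation of 0.982 with the other libraries against 0.992 to 0.993 for the rest. Its share of counts on small nuclear and nucleolar RNAs was 0.366% against 0.120% to 0.143% elsewhere, and its share on mitochondrial mRNAs was 0.272% against 0.758% to 1.13%. The first principal component, with 47.6% of the variance, separated this library from the other 7. Counts that changed without it are therefore given both ways below.

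Of 55291 genes in the deposited tables, 16371 passed the expression filter. In edgeR's quasi-likelihood test, 129 genes (0.788% of those tested) differed between the lines at a Benjamini-Hochberg adjusted p under 0.05, and such genes are named called genes here. Of these, 55 (0.336%) were higher and 74 (0.452%) were lower in the GPATCH1-dTAG line, and 2509 genes had an unadjusted p under 0.05. Most of the differences were small. The median absolute log2 difference of the called genes was 0.68, the smallest was 0.30, 39 genes were under 0.5 and 31 reached 1. The 4 libraries of one line did not overlap with the 4 of the other in any of the 129 genes, which calling them on these same libraries favours. Of all genes tested, 1904 (11.6%) were free of overlap. Of the called genes, 116 are annotated as protein coding. Without the DHX35-dTAG library that stood apart, 1013 of 17037 genes (5.95%) were called, 444 (2.61%) higher and 569 (3.34%) lower, and all 129 genes were among them. In that fit the median absolute log2 difference of the called genes was 0.33 and 92 genes reached 1. The count was 165 without replicate 2 of the DHX35-dTAG line in DMSO and fell when any of the other 6 libraries was left out. It was 41 and 54 without replicate 1 or 2 of the DHX35-dTAG line in dTAG-13, 27 and 33 without replicate 1 or 2 of the GPATCH1-dTAG line in DMSO, and 53 and 38 without replicate 1 or 2 of that line in dTAG-13.

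**Figure D1:**
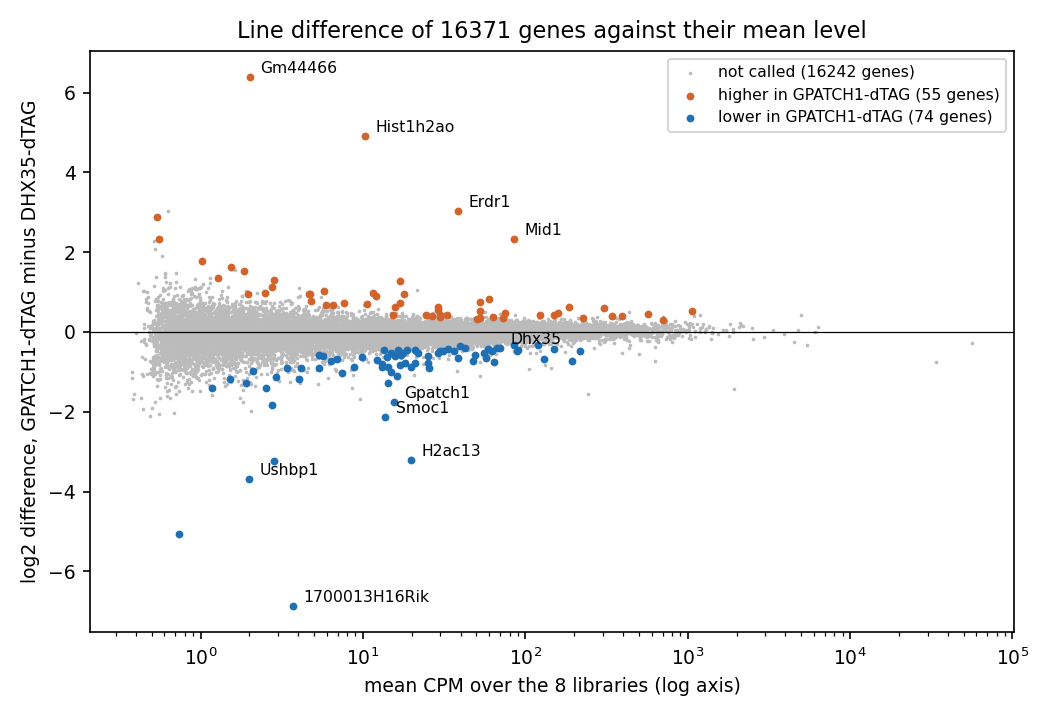
Each point is 1 of 16371 genes, placed by its mean level over the 8 libraries in CPM (log axis) and by the log2 difference between the lines, GPATCH1-dTAG minus DHX35-dTAG. The 55 genes called higher and the 74 called lower are coloured, and labels mark 10 of the genes described in the text, from Gm44466 at 6.39 to 1700013H16Rik at -6.87.

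The targeted genes were examined first. Gpatch1 mRNA was much lower in the line in which GPATCH1 is tagged, and Dhx35 mRNA was higher in the line in which DHX35 is tagged. Gpatch1 (chromosome 7, 35276536 to 35318440, minus strand, GRCm38) stood at 25.6 and 23.4 CPM (counts scaled to the library size) in the DMSO libraries of the DHX35-dTAG line and at 23.2 and 23.7 CPM in its dTAG-13 libraries. In the GPATCH1-dTAG line it stood at 7.31 and 6.90 CPM in DMSO and at 7.06 and 7.20 CPM in dTAG-13. The lines did not overlap, and within a line the libraries of both treatments lay close together. The log2 difference was -1.75 (standard error, SE, 0.08, adjusted p = 6.52e-06, edgeR), and it was -1.71 (SE 0.08) without the library that stood apart.

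Dhx35 (chromosome 2, 158794807 to 158858214, plus strand) stood at 72.3, 80.4, 84.8 and 79.5 CPM in the DHX35-dTAG line and at 58.1, 58.4, 59.3 and 64.9 CPM in the GPATCH1-dTAG line, with the DMSO libraries given first. The log2 difference was -0.40 (SE 0.06, adjusted p = 0.0209, edgeR), and the highest library of the GPATCH1-dTAG line was below the lowest of the DHX35-dTAG line. With 1 library left out, the difference stayed between -0.43 and -0.36 but passed the threshold in 2 of 8 fits, while Gpatch1 passed it in 8 of 8. Wdr83, which encodes a WD-repeat protein of the spliceosome, had a log2 difference of -0.27 (SE 0.22, adjusted p = 0.582). That value rested on 1 library, since Wdr83 stood at 29.9 CPM in replicate 1 of the DHX35-dTAG line in DMSO and between 13.8 and 16.8 CPM in the other 7, and the difference was 0.06 without it. Dhx15, a helicase that is also served by G-patch proteins, had a log2 difference of 0.10 (SE 0.06, adjusted p = 0.477).

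Other parts of the splicing machinery were described with a list of spliceosomal RNA helicases and their partners. Of its 31 tested members, Gpatch1 and Dhx35 were called lower and none was called higher, beside 0.452% and 0.336% of all genes, and the median log2 difference of the list was 0.06 against -0.01 over all genes. Without the library that stood apart, 4 were called higher and the same 2 lower, beside 2.61% and 3.34% of all genes. The 4 were Snrnp200, the helicase that unwinds the U4 and U6 snRNAs (0.17), Prpf8, the protein at the centre of the spliceosome (0.16), Rbm5, a splicing regulator (0.24), and Cdc5l, a component of the Prp19 complex (0.16), all as log2 differences. Of 9 tested genes of the degradation machinery that dTAG-13 uses, 0 were called in either fit.

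**Figure D2:**
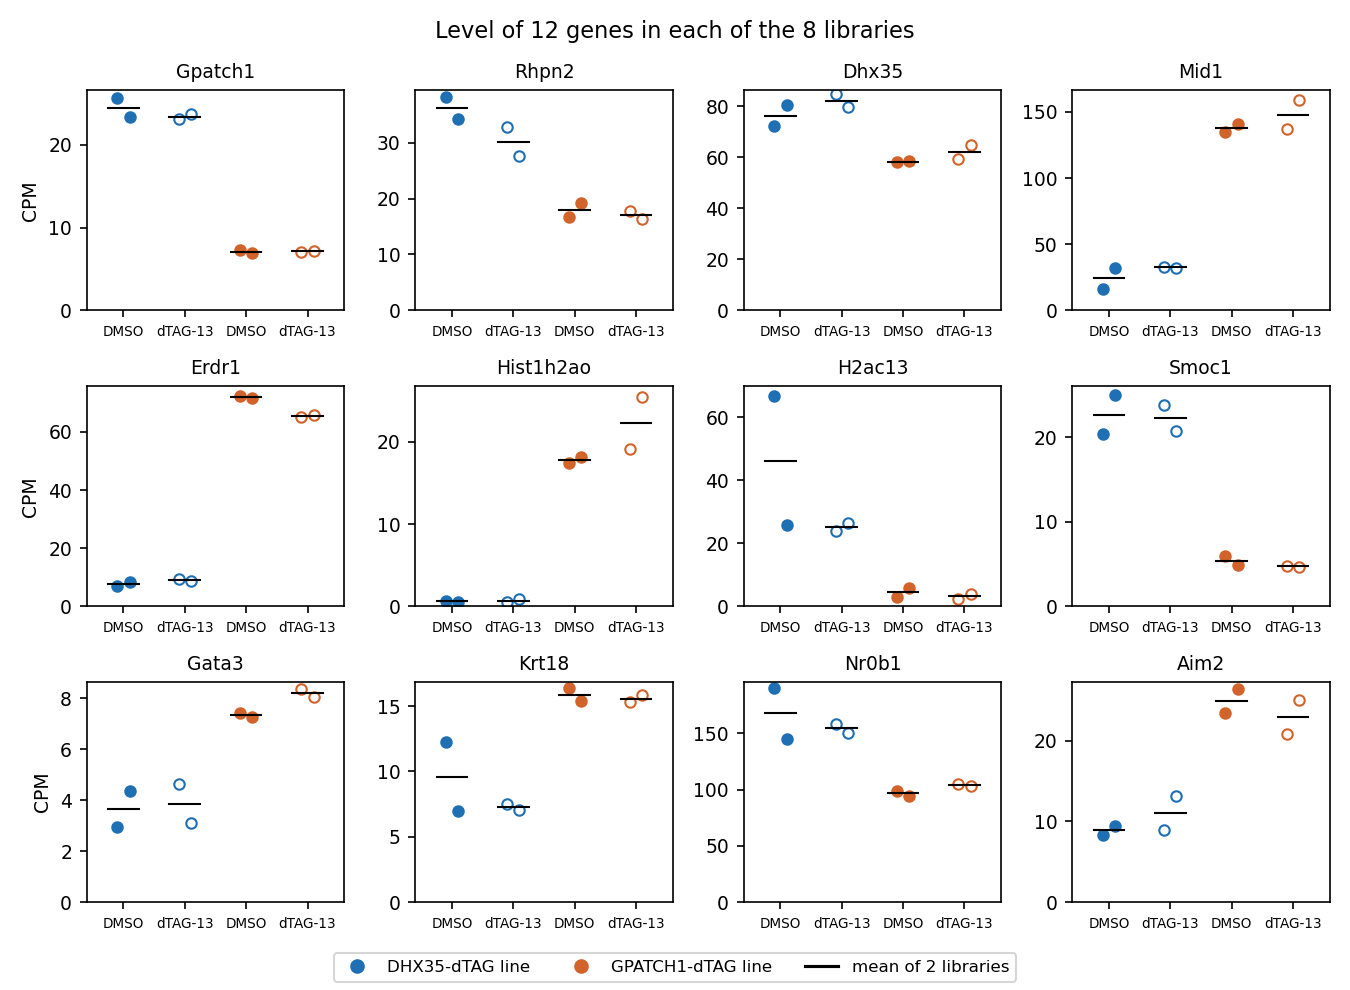
Levels in CPM of 12 genes in each of the 8 libraries, with 1 panel per gene and an axis that starts at 0. Points are libraries, filled for DMSO and open for dTAG-13, and bars are the mean of the 2 libraries of a group. In each panel the points of the GPATCH1-dTAG line lie all above or all below those of the DHX35-dTAG line, and for Gpatch1 they lie between 6.90 and 7.31 against 23.2 to 25.6.

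The chromosomal surroundings of Gpatch1 were then read. Rhpn2 (35334170 to 35392289, plus strand) is the next called gene beside Gpatch1 and starts from the other strand near the 5′ end of Gpatch1. It stood at 38.2, 34.2, 32.7 and 27.6 CPM in the DHX35-dTAG line and at 16.8, 19.18, 17.8 and 16.4 CPM in the GPATCH1-dTAG line. Its log2 difference was -0.92 (SE 0.09, adjusted p = 0.00187, edgeR), the next largest in the region after Gpatch1 itself. Within 1 Mb of Gpatch1, 24 other genes were tested and Rhpn2 alone was called, beside 0.788% of all genes. Of the 24, 15 had a log2 difference below 0, and the median over all genes was itself slightly below 0, at -0.01. The median of the 24 was -0.16, and values that did not pass the test were -0.38 for Nudt19 (adjusted p = 0.104) and -0.24 for Faap24 (adjusted p = 0.380). Within 1 Mb of Smoc1, a region taken for comparison after its values were seen, 30 other genes had a median of -0.04 and 0 were called.

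At the end of the X chromosome, Erdr1, Mid1 and Gm15247 were all higher in the GPATCH1-dTAG line. This region borders the pseudoautosomal part that X and Y share, where sequence is repetitive and copy number differs between mouse strains. Erdr1, an apoptosis-related gene of that region (X, 170009659 to 170019281), stood at 7.02, 8.42, 9.49 and 8.58 CPM in the DHX35-dTAG line and at 72.4, 71.5, 65.1 and 65.9 CPM in the GPATCH1-dTAG line. Its log2 difference was 3.04 (SE 0.10, adjusted p = 6.1e-07, edgeR). Every library of one line was far from every library of the other.

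Mid1, which encodes a microtubule-bound ubiquitin ligase and spans the pseudoautosomal boundary in laboratory mice (X, 169685199 to 170005736), stood at 16.6, 32.1, 33.2 and 32.1 CPM against 135, 141, 137 and 159 CPM. Its log2 difference was 2.34 (SE 0.17, adjusted p = 0.000222). The low value in the DHX35-dTAG line belongs to the library that stood apart. Gm15247, an antisense transcript inside Mid1, had a log2 difference of 1.77 (SE 0.25), and Gm47283, placed by the annotation at the end of the Y chromosome, had 0.82 (SE 0.08, adjusted p = 0.00156). Hccs, which lies before Mid1 and encodes holocytochrome c synthase, had a log2 difference of 0.09 and was not called. Reads of Erdr1, Mid1, Gm15247 and Gm47283 can be shared with near-identical copies, and the antisense pair cannot be told apart without knowing the strand setting of the counting, so the split between these genes is uncertain.

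By median log2 difference, no autosome stood apart as a whole. Over the autosomes the median lay between -0.04 and 0.03, and the X chromosome had a median of -0.00053 over 517 tested genes. On the X chromosome 9 genes were called (1.74%), beside 0.788% of all genes. The share called on single autosomes ran from 0.244% on chromosome 18 to 1.88% on chromosome 14. Of 7 genes specific to the Y chromosome, both lines had few counts. Summed over them, a library held 6 to 24 counts, although E14 cells were derived from a male embryo. This was so in both lines and does not separate them.

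**Figure D3:**
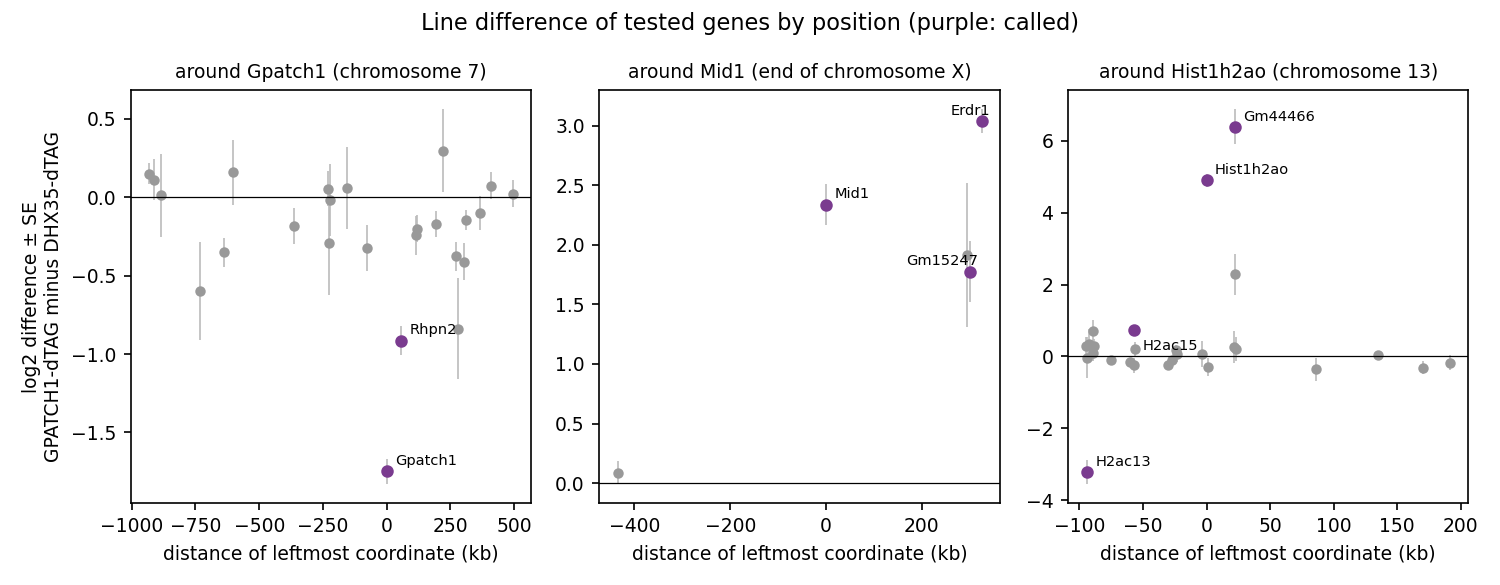
Log2 difference between the lines with its standard error, for tested genes around Gpatch1, Mid1 and Hist1h2ao, against the distance between the leftmost coordinates of the genes in kb, with called genes in purple. Only Gpatch1 (-1.75) and Rhpn2 (-0.92) are called in the first region, Mid1, Gm15247 and Erdr1 lie between 1.77 and 3.04 in the second, and H2ac13 (-3.22) lies opposite to Hist1h2ao (4.90) in the third.

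A cluster of histone H2A genes on chromosome 13 held large differences of both signs. These genes make the core histone H2A during DNA replication, and their coding sequences are almost the same. The first 120 bases of the coding sequence are printed because they show how little separates the genes among which the reads had to be divided. Capitals mark the 7 positions at which the 5 genes Hist1h2ao, H2ac13, H2ac15, Hist1h2an and Hist1h2ap are not all alike. Sequences are the coding strand 5′ to 3′ from GENCODE M21 transcripts (GRCm38).
Hist1h2ao: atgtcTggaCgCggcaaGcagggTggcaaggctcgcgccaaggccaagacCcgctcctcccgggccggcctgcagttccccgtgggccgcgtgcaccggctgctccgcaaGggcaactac
H2ac13: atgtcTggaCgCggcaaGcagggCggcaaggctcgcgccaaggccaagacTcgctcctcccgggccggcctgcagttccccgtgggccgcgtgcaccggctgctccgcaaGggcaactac
H2ac15: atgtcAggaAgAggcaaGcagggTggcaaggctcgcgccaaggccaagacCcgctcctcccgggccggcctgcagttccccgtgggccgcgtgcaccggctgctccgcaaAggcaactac
Hist1h2an: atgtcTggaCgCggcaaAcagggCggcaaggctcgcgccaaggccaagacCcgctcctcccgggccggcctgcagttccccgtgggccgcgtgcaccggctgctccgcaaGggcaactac
Over the whole coding sequence of 393 bases, H2ac13 differs from Hist1h2ao at 6 positions (98.5% identity), Hist1h2an at 5 (98.7%) and H2ac15 at 12 (96.9%). Hist1h2ap has the same coding sequence as Hist1h2ao.

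Hist1h2ao (chromosome 13, 21810465 to 21810944) stood at 0.665, 0.578, 0.513 and 0.884 CPM in the DHX35-dTAG line and at 17.5, 18.1, 19.15 and 25.5 CPM in the GPATCH1-dTAG line, a log2 difference of 4.90 (SE 0.18, adjusted p = 8.48e-07, edgeR). H2ac13 (21716422 to 21716814) went the opposite way, from 66.7, 25.7, 23.9 and 26.4 CPM in the DHX35-dTAG line to 3.04, 5.92, 2.35 and 3.96 CPM, a log2 difference of -3.22 (SE 0.33, adjusted p = 0.00203). The lines did not overlap for either gene, which the rule for naming genes by size required. H2ac15 (21753435 to 21753827) was higher by 0.74 (SE 0.07), and Hist1h2an had 0.18, which did not pass the test.

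Gm44466, annotated as a miRNA gene (21833093 to 21833230), lies inside Hist1h2ap on the opposite strand. It had 223 counts over the 4 libraries of the GPATCH1-dTAG line against 2 over those of the DHX35-dTAG line, a ratio of 102 with an exact 95% interval of 28.0 to 850, which covers counting error only. Hist1h2ap itself was at 0.867 ± 0.34 CPM (SD, n = 4) against 0.167 ± 0.13 (SD, n = 4) and was not called with all libraries (log2 difference 2.29, adjusted p = 0.115). With coding sequences this close and no strand setting given, the assignment of reads to single genes of the cluster is uncertain.

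The list of replication-dependent histones holds these H2A genes and others. Of its 64 tested members, 2 were called higher and 4 lower (0.336% and 0.452% of all genes), with a median log2 difference of 0.01. Without the library that stood apart, 7 were called higher and 10 lower (2.61% and 3.34% of all genes) and the median was -0.05, with H2bc9, an H2B gene, at -0.90 and Hist1h2ap at 1.86 among those added. Besides the H2A genes, H4c8 (-0.71), H1f4 (-0.48) and H3c8 (-0.32), which encode histones H4, H1.4 and H3, were called lower and lie within 200 kb of each other on chromosome 13. H4c8 was also highest in the library that stood apart, with 306 CPM against 210 to 231 in the other libraries of its line. The summed level of the list was 5293 to 5451 CPM in the GPATCH1-dTAG line and 5519 to 6927 CPM in the DHX35-dTAG line, and the part of that library's RNA composition in these values was not tested.

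Called genes were next to each other elsewhere too. Within 200 kb, 14 pairs of neighbouring called genes were found, 13 of them with the same sign. They included the keratin genes Krt8 and Krt18, the neurofilament genes Nefm (-1.04) and Nefl (-0.43), Clu (0.96), an extracellular chaperone, with Ephx2 (0.96), an epoxide hydrolase, and Gm2694 (-1.13) with Cbln1 (-1.19), a synaptic organizer. Kcnab3 (-0.57) was next to Chd3 (-0.61), a chromatin remodeller, and Catip (-0.91) was next to Slc11a1 (-1.40), a metal transporter of phagocytes. Gm2694 overlaps Cbln1, and Nefl lies inside the annotated span of Nefm, so that their reads may be shared. The 14 pairs also hold histone genes of chromosome 13 described above. How often neighbouring tested genes lie this close, or share a sign, was not counted. The number of pairs and their signs therefore have no background here.

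Several genes were nearly silent in one line and expressed in the other. 1700013H16Rik, a protein-coding gene on the X chromosome (53742901 to 53757831), had 386 counts over the DHX35-dTAG line and 3 over the GPATCH1-dTAG line, a ratio of 140 with an exact 95% interval of 47.6 to 683 that covers counting error only. Dnajc5g, a cysteine string protein gene of the testis, had 74 counts against 2, a ratio of 40.3 (exact interval 10.8 to 339). Ushbp1, whose product binds a PDZ protein of Usher syndrome, stood at 3.92, 3.86, 3.50 and 3.63 CPM in the DHX35-dTAG line and at 0.324, 0.177, 0.310 and 0.288 CPM in the GPATCH1-dTAG line (log2 difference -3.68, SE 0.22, adjusted p = 4.42e-05). In these 3 genes the GPATCH1-dTAG line was the low one. The reverse held for Gm44466, described above, and for Zfp966, a zinc finger gene with 52 counts in the GPATCH1-dTAG line against 9, a ratio of 5.30 (exact interval 2.59 to 12.2, counting error only).

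Smoc1, a secreted calcium-binding matrix protein that restrains BMP signalling, stood at 20.3, 25.003, 23.8 and 20.7 CPM in the DHX35-dTAG line and at 5.95, 4.86, 4.77 and 4.68 CPM in the GPATCH1-dTAG line. Its log2 difference was -2.14 (SE 0.11, adjusted p = 2.09e-05). The remaining genes among the 12 named as lowest were Gm45184 (-3.23), Tmem40 (-1.83), Apol8 (-1.41), Sytl3 (-1.29), a vesicle traffic protein, and Fmr1nb (-1.29), a testis antigen next to Fmr1. Fmr1nb was at 29.5 CPM in the library that stood apart and at 15.7 to 17.9 CPM in the others of its line, against 7.68 to 8.66 CPM in the GPATCH1-dTAG line.

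Among the genes that were higher, Aim2, the cytosolic DNA sensor that starts an inflammasome, stood at 8.35, 9.38, 8.89 and 13.2 CPM in the DHX35-dTAG line and at 23.4, 26.3, 20.8 and 24.99 CPM in the GPATCH1-dTAG line. The log2 difference was 1.27 (SE 0.14) at an adjusted p of 0.00373, with a gap between the lines. Nrk, a kinase of the placental spongiotrophoblast, had a log2 difference of 1.53 (SE 0.22, adjusted p = 0.0136) at 0.739 to 1.28 CPM against 2.21 to 3.28 CPM. The others named by size were AI838599 (1.35), Gm37262 (1.31), Gm40987 (1.13) and the processed pseudogene Gm18180 (1.62), all below 6 CPM in every library.

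Of 29 tested genes of naive and general pluripotency, 3 were called lower (0.452% of all genes), 0 higher and 26 not called, and their median log2 difference was -0.11 against -0.01 over all genes. Nr0b1, a nuclear receptor without a DNA-binding domain that is part of the pluripotency network, stood at 191, 145, 158 and 150 CPM in the DHX35-dTAG line and at 98.8, 94.5, 105 and 103 CPM in the GPATCH1-dTAG line. Its log2 difference was -0.68 (SE 0.09, adjusted p = 0.00919). Tcl1, an AKT coactivator, followed with -0.58 (SE 0.07), and Utf1, a chromatin factor of undifferentiated cells, with -0.49 (SE 0.08). Of the 8 fits with 1 library left out, Nr0b1 passed the threshold in 5, Tcl1 in 6 and Utf1 in 2.

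The core factors gave no call with all libraries. Pou5f1 was at 1087 CPM in the library that stood apart and at 772 to 821 CPM in the other libraries of the DHX35-dTAG line, against 702 to 795 CPM in the GPATCH1-dTAG line (log2 difference -0.24, adjusted p = 0.321). Nanog had a log2 difference of 0.05 (adjusted p = 0.760), which turned to -0.02 without that library. In the fit without it, 8 of the 29 genes were called, all lower, against 3.34% of all genes called lower. They were Nr0b1 (-0.57), Tcl1 (-0.52), Utf1 (-0.40), Prdm14 (-0.28), Klf5 (-0.26), Sox2 (-0.19), Nr5a2 (-0.17) and Esrrb (-0.16). Pou5f1 (-0.11, adjusted p = 0.168) and Nanog were not called there.

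Genes of the formative state and of early lineages, which cells take on as they leave naive pluripotency, gave 2 calls of 26, both lower (0.452% of all genes), with a median log2 difference of -0.12. Lefty2, an inhibitor of Nodal signalling, stood at 19.6, 15.0, 16.1 and 16.4 CPM against 10.2, 9.99, 8.98 and 9.08 CPM (log2 difference -0.81, SE 0.10, adjusted p = 0.00665). Zic2, a zinc finger factor of the formative state, had -0.33 (SE 0.06, adjusted p = 0.0405). Its call held in 1 of 8 fits with 1 library left out. Without the library that stood apart, 6 were called lower (3.34% of all genes), among them Zic5 (-0.43), Foxd3 (-0.31) and Etv4 (-0.29), and Lef1, a nuclear effector of Wnt signalling, was called higher (0.34). The median of the list was -0.07 in that fit. In the list of TGF-beta, BMP and Nodal genes, Bmp4, the ligand that works with LIF to hold naive cells, was lower by -0.52 (SE 0.10, adjusted p = 0.0450) beside Lefty2. These were the 2 calls among 28 tested members of that list, beside 0.452% of all genes called lower. In the LIF and STAT3 list, Socs2, a feedback inhibitor of cytokine signalling, was lower by -0.41 (SE 0.07). The other 15 tested members were not called, beside the same share of all genes. Bmp4 and Socs2 each passed the threshold in 2 of 8 fits with 1 library left out.

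Gata3, Gata2, Krt18 and Krt8 were higher in the GPATCH1-dTAG line. Gata3, a transcription factor of the trophectoderm, stood at 2.96, 4.37, 4.62 and 3.10 CPM in the DHX35-dTAG line and at 7.44, 7.25, 8.37 and 8.07 CPM in the GPATCH1-dTAG line (log2 difference 1.04, SE 0.16, adjusted p = 0.0178). It was the 1 call among 6 tested trophoblast markers (0.336% of all genes were called higher), whose median was 0.19 and whose summed level was 27.8 to 33.6 CPM against 20.1 to 27.3 CPM. Gata2, a related factor that is not on the list and was named after its values were seen, had 0.79 (SE 0.15, adjusted p = 0.0499). Gata3 passed the threshold in 2 of 8 fits with 1 library left out, and Gata2 in 1. Cdx2, the defining trophectoderm factor, was at 4.07 to 7.37 CPM in all libraries, with overlap between the lines and a log2 difference of 0.24 (adjusted p = 0.612). Its highest value in the DHX35-dTAG line, 7.09 CPM, was in the library that stood apart, and without that library the difference was 0.48 (adjusted p = 0.0782) and the median of the trophoblast list was 0.40, still with Gata3 as the 1 call.

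Krt18 and Krt8, the keratin pair of simple epithelia, were both called. Each passed the threshold in 2 of 8 fits with 1 library left out. Krt18 stood at 12.3, 6.94, 7.52 and 7.08 CPM in the DHX35-dTAG line and at 16.4, 15.4, 15.3 and 15.8 CPM in the GPATCH1-dTAG line, a log2 difference of 0.91 (SE 0.16, adjusted p = 0.0398) that was 1.14 without the library that stood apart. Krt8 had 0.62 (SE 0.11, adjusted p = 0.0430). They were the 2 calls among 23 tested genes of cell adhesion and the epithelial state, beside 0.336% of all genes called higher, and the list had a median of 0.07. In the basement membrane list of 20, Lama5, the laminin alpha 5 chain, was higher by 0.45 (SE 0.07, adjusted p = 0.0143), and Smoc1 was the 1 gene called lower (0.336% and 0.452% of all genes). Without the library that stood apart, Lamc1 (0.20), Col4a1 (0.42) and Fbln1 (0.29) were called higher as well, beside 2.61% of all genes.

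The other marker lists gave no call, which held for 8 tested primitive endoderm markers, 3 of fibroblast feeders, 5 neural and 4 mesendoderm markers in both fits. The summed level of the primitive endoderm markers was 12.04 to 15.8 CPM in the GPATCH1-dTAG line against 10.7 to 12.4 CPM in the DHX35-dTAG line. Their median log2 difference was 0.20, and the highest member, Dab2, an endocytic adaptor, was at 0.74 (adjusted p = 0.188). Fewer cells of a type and less RNA per cell cannot be told apart in such bulk libraries. The 6 tested genes of the 2-cell-like state had 0 calls in either fit. Their median was -0.35 with all libraries and -0.55 without the library that stood apart.

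**Figure D4:**
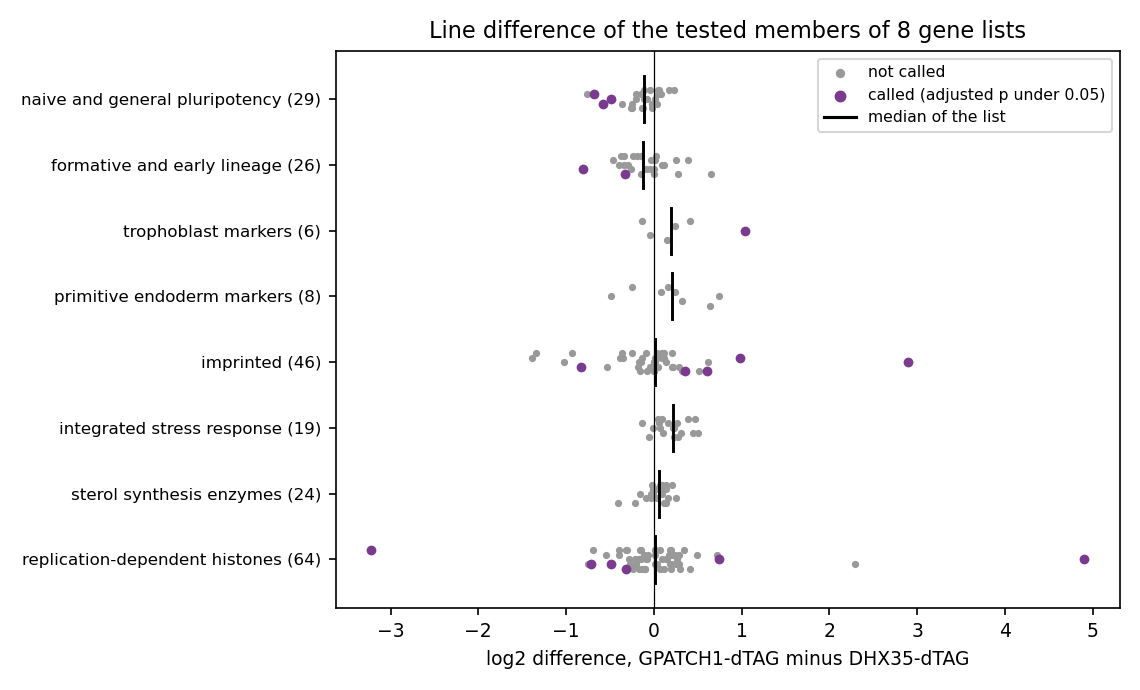
Log2 difference between the lines for every tested member of 8 gene lists (number of members in brackets), with called members in purple and the median of each list as a black bar. The 3 called pluripotency genes lie between -0.68 and -0.49, the imprinted genes spread from -1.39 to 2.89, and the medians of the lists lie between -0.12 and 0.22.

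Imprinted genes are expressed from 1 parental allele and are known to drift in cultured stem cells. Of 46 tested, 4 were called higher and 1 lower (0.336% and 0.452% of all genes), with a median log2 difference of 0.01. H19, the maternally expressed noncoding RNA, stood at 7.39, 6.81, 10.8 and 6.19 CPM in the DHX35-dTAG line and at 14.8, 15.2, 15.6 and 16.1 CPM in the GPATCH1-dTAG line (log2 difference 0.99, SE 0.15, adjusted p = 0.0161). Igf2, its paternally expressed neighbour and a growth factor, had 55 counts against 6, a ratio of 8.41 with an exact 95% interval of 3.63 to 23.9 that covers counting error only. Its adjusted p was 0.0350 (edgeR), and the call held in 1 of 8 fits with 1 library left out. Both genes of this reciprocally imprinted pair were thus higher in the same line.

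Peg10, a retrotransposon-derived gene needed in the placenta, stood at 185, 249, 266 and 266 CPM against 359, 360, 364 and 383 CPM (log2 difference 0.61, SE 0.09, adjusted p = 0.0190). Plagl1, a zinc finger factor, was higher by 0.36 (SE 0.07, adjusted p = 0.0444). Sfmbt2, a Polycomb protein expressed from the paternal allele, was lower by -0.83 (SE 0.11, adjusted p = 0.0112). Of the 8 fits with 1 library left out, Peg10 passed the threshold in 2, Plagl1 in 1 and Sfmbt2 in 3. Without the library that stood apart, 7 were called higher and 4 lower, in a fit that called 5.95% of all genes against 0.788% with all libraries. Those added were Grb10 (0.33), Gnas (0.25) and Igf2r (0.22) on the higher side, and Magel2 (-1.52), Peg12 (-1.08) and Zfp264 (-0.54) on the lower side, of which Magel2 and Peg12 are neighbours in the Prader-Willi region.

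The integrated stress response, by which Atf4 turns on amino acid synthesis and transport, gave 0 calls of 19 genes with all libraries, with a median log2 difference of 0.22 against -0.01 over all genes. Without the library that stood apart, 8 of the 19 were called and all were higher, against 2.61% of all genes called higher in that fit. They were Nupr1 (0.61), Phgdh (0.45) and Psat1 (0.23), the last 2 being enzymes of serine synthesis, Trib3 (0.32), Atf4 itself (0.24), Mthfd2 (0.20), Cth (0.18) and Asns (0.14). In that library Atf4 was at 221 CPM, against 176 to 193 CPM in the others of its line and 213 to 220 CPM in the GPATCH1-dTAG line. Calls in this group were made without that library and not with all libraries. The median of the list was 0.20 without it, near the 0.22 with all libraries. Why the calls differed between these fits was not tested.

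In the remaining lists few genes passed the test. Ldha, lactate dehydrogenase A, was the 1 call among 27 genes of glycolysis and hypoxia, higher by 0.30 (SE 0.06, adjusted p = 0.0477). That call held in 1 of 8 fits with 1 library left out. Tuba3a, a testis tubulin, was the 1 call among 22 germline genes that DNA methylation silences, lower by -0.72 (SE 0.07, adjusted p = 0.00187). With all libraries, 0 were called of 22 p53 genes, 15 immediate early genes, 24 sterol synthesis genes, 33 Wnt genes, 23 FGF and ERK genes, 18 genes of DNA methylation, 15 of antigen presentation and interferon, 10 mitochondrial mRNAs and 4 genes of X inactivation, while the 7 Y-linked genes of that list had too few counts to be tested. Calls were more frequent in most of these lists without the library that stood apart, where 5.95% of all genes were called against 0.788% with all libraries, and 1 call in a list of about 20 is near that share. There, 4 Wnt genes were called higher and 4 lower, 5 glycolysis genes higher and 2 lower, 4 germline genes lower, 3 FGF and ERK genes lower, 2 genes of antigen presentation and interferon higher and 2 lower, 2 LIF and STAT3 genes lower, and of the TGF-beta, BMP and Nodal list 1 higher and 3 lower. In that fit, 1 gene each was called higher among the p53, sterol synthesis and mitochondrial lists, and 1 each was called lower among the immediate early and DNA methylation lists. The mitochondrial mRNAs had a median log2 difference of 0.39, which was -0.01 in that fit.

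The difference between the lines was then read in DMSO and in dTAG-13 apart. The log2 differences come from separate libraries, but both tests came from a single fit of all libraries. They shared their estimate of the spread, so the p-values of the treatments are not independent. Counts from the libraries of each treatment alone are given in the section on processing. In DMSO 15 genes (0.0916%) were called, 8 higher and 7 lower, and in dTAG-13 also 15 (0.0916%), 6 higher and 9 lower, with 10 genes in both sets. All 15 of each set had the same sign in the other treatment. Of 2117 genes with an unadjusted p under 0.05 in DMSO, 1647 (77.8%) had the same sign in dTAG-13, against 59.5% of all genes tested. Gpatch1 had a log2 difference of -1.78 in DMSO and -1.72 in dTAG-13, Erdr1 had 3.22 and 2.86, and Smoc1 had -2.06 and -2.23. These counts moved with single libraries. Without replicate 2 of the DHX35-dTAG line in DMSO, which left the library that stood apart as the only one of its group, 5887 genes were called in DMSO. Without replicate 1 there were 121.

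With all libraries, edgeR called 0 genes for a line difference that changed with the treatment, and 640 had an unadjusted p under 0.05, while DESeq2 called 9. The smallest adjusted p of this interaction among the 129 called genes was 0.862. A group of 8 genes had line differences of opposite sign, above 2 on the log2 scale in DMSO and below -2 in dTAG-13. edgeR called none of them within a treatment or for the interaction, where the smallest adjusted p values within treatments were 0.156 and 0.150, and all 8 were among the 9 that DESeq2 called. They were CT010467.1, Gm23935, Gm24270, Gm24187, Gm25911, Mir6236, Gm15564 and Lars2. CT010467.1 and Gm23935 are the 2 genes with the highest counts, which hold ribosomal RNA sequence, and the others varied with them. For CT010467.1 the 2 DMSO libraries of the GPATCH1-dTAG line were at 5591 and 106509 CPM, so its libraries differed widely within a group.

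**Figure D5:**
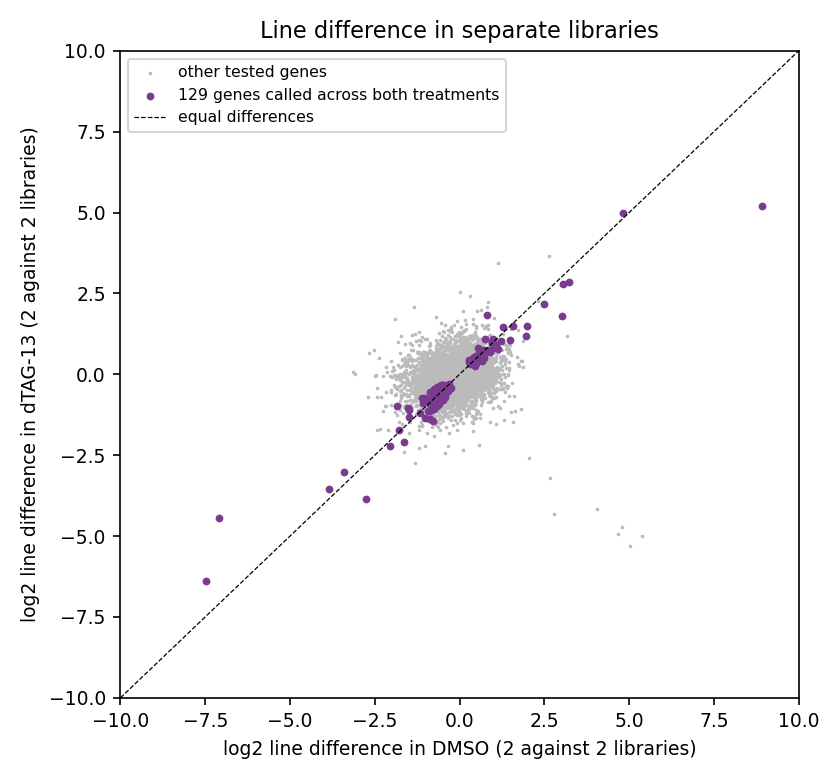
Log2 difference between the lines in DMSO (horizontal) against dTAG-13 (vertical), each from 2 against 2 libraries, for all tested genes, with the 129 called genes in purple and a dashed line where both are equal. The called genes follow the dashed line, as choosing them on both treatments favours. The 8 grey points at lower right are the genes with the highest counts, CT010467.1 and Gm23935, and the genes that varied with them.

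Of the 129 genes, 25 passed the threshold in every fit with 1 library left out and under each of the 10 other settings in which they were tested. Besides genes already described (Gpatch1, Rhpn2, Erdr1, Mid1, Gm47283, Hist1h2ao, H2ac13, H2ac15, Gm44466, 1700013H16Rik, Dnajc5g, Ushbp1, Smoc1, Gm45184, Aim2, Ephx2, Chd3 and Tuba3a) they were Ttll4, a tubulin-modifying enzyme (-0.75), Arhgap30 (-0.89), Tgm3, a transglutaminase (-0.99), Tfpi, the tissue factor pathway inhibitor (-0.78), Ephb3, an ephrin receptor (-0.78), Rpl39l, a ribosomal protein paralog (-0.88), and Fstl1, a secreted glycoprotein (0.43). Fstl1 was at 123 to 133 CPM in the DHX35-dTAG line and at 169 to 174 CPM in the GPATCH1-dTAG line, the smallest difference of the 25. No called gene changed sign in any of these fits.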

How the data were processed

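Ribosomal RNA was depleted, human RNA was added and stranded libraries were made by the authors, who trimmed reads with Trim Galore 0.6.6, aligned them with STAR 2.7.5c to mm10 and deposited raw counts per gene without normalization. The counting program, annotation and strand setting are not given in the sources used here. Positions are from GENCODE M21 (GRCm38).

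The test was edgeR 4.0.16's quasi-likelihood test in R 4.3.3, with TMM, filterByExpr on the 4 groups, terms for treatment and line, Benjamini-Hochberg adjustment and a threshold of 0.05. Within treatments, the model had 1 term per group. The standard error is the log2 difference divided by the square root of F. The script was tested on simulated data. CPM are counts over the TMM-scaled library size, and the common dispersion gave a coefficient of variation of 12.3%.

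Genes were named by rule: Dhx35, Gpatch1, Wdr83, Dhx15, the 12 largest differences each way with a mean of at least 1 CPM and no overlap, and list members. Others were named after their values were seen, among them those called without 1 library. The comparison and the 29 lists were chosen with earlier results of these data known, and the histone list was widened to newer symbols after the tables were read. The alternatives were DESeq2 1.42.0, its size factors, limma-voom 3.58.1, other filters and terms, and each library left out.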

Additional observations from a re-analysis of the deposited data

Results flagged for a closer look

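A gap test on the highest and lowest library (Dixon's, 95% level) was run on 195 groups of values, each library measure over 8 libraries and each named gene in the 4 libraries of a line. It picked out 16, where chance alone would pick out about 1 in 20. Replicate 1 of the DHX35-dTAG line in DMSO gave most of them. It had the highest share of small nuclear and nucleolar RNA counts (0.366%), the lowest share of mitochondrial mRNA counts (0.272%) and the lowest mean correlation (0.982). Within its line it also had the highest levels of Wdr83 (29.9 CPM), H2ac13 (66.7 CPM), Fmr1nb (29.5 CPM), Krt18 (12.3 CPM), Pou5f1 (1087 CPM), Cdx2 (7.09 CPM) and Arhgap30 (19.6 CPM), and the lowest level of Mid1 (16.6 CPM).

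Gm44466 was at 0.177 CPM in replicate 2 of the DHX35-dTAG line in dTAG-13 and had no counts in the other 3 libraries of the line. In the GPATCH1-dTAG line, Smoc1 was highest in replicate 1 in DMSO (5.95 CPM), Gm2694 in replicate 2 in DMSO (2.48 CPM), Pou5f1 in replicate 1 in dTAG-13 (795 CPM) and Atf4 in replicate 2 in dTAG-13 (219.6 CPM).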

How the results depend on the processing

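For the line difference across both treatments, the 129 calls became 227 with DESeq2, 920 without an expression filter, 757 with limma-voom and sample quality weights and 300 with a correction for GC content and length, which was chosen after seeing the data. They ranged from 27 to 1013 with 1 library left out. With DESeq2's size factors, a minimum of 10 counts, a replicate block, no treatment term, the mean of both treatments or without the 2 most abundant genes, the count stayed between 109 and 173. For the line difference in DMSO, the 15 calls became 47 with DESeq2, 986 without the filter, 4 with at least 10 counts in every library, 2 from the 4 DMSO libraries alone and 36 with the GC and length correction (4 to 5887 with 1 library left out). For the line difference in dTAG-13, the 15 became 48, 158, 4, 342 from the 4 dTAG-13 libraries alone and 38 under the same settings, and 237 with limma-voom (4 to 660 with 1 library left out). For the line by treatment interaction, 0 became 9 with DESeq2 and 140 without the filter (0 to 3592 with 1 library left out). The causes were not tested.

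Same-numbered deviations correlated at 0.036 to 0.298 between groups, and 2 of the 6 correlations were under 0.1, so the replicate numbers were not taken to pair the libraries, although a weak pairing cannot be told from these values. The replicate block gave 151, 16 and 19 calls and 2 for the interaction.

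The log2 difference of Wdr83 turned from -0.27 to 0.056 and the log2 difference of Nanog from 0.053 to -0.019 without replicate 1 of the DHX35-dTAG line in DMSO, with ranges of -0.41 to 0.056 and -0.019 to 0.10 over the libraries left out, and Nanog was -0.0078 with limma-voom. Scaling moved the median of all genes by at most 0.0065 and the GC and length correction by 0.017. Where a lone library remained in a group, it was assumed to vary like the others.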
